A study of Mus musculus with 6 samples.

Results

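The 36 genes described here are p53 itself (Trp53 in the mouse), its regulators, genes that p53 is known to switch on, and kinases and repair proteins of the DNA damage response. They were chosen by gene symbol for these roles, with earlier results of these data known. All 36 were found in a raw count table of 18260 genes. By role they form 5 groups: p53 and its direct regulators (3 genes), targets that act in cell death (13), targets that act in growth arrest and stress (9), targets that act in DNA repair and nucleotide supply (4), and checkpoint kinases with genes of homologous recombination and the Fanconi pathway (7).

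The libraries came from primary hepatocytes isolated from liver tumours of male mice. Both genotypes carried Ripply1 alleles with loxP sites around exons 1 to 3, and Ripply1 encodes a co-repressor that acts on T-box transcription factors. The controls, Ripply1F/F (F/F below), are described by these alleles only. In Ripply1ΔHep mice (ΔHep), the Alb-Cre transgene, a recombinase under the albumin promoter, deleted Ripply1 in hepatocytes. Mice of both genotypes received 90 μg/g diethylnitrosamine (DEN), a carcinogen that alkylates DNA after activation in hepatocytes, by 1 intraperitoneal injection when 6 weeks old. After 3 weeks without treatment they ate a diet with 0.05% phenobarbital (PB), a tumour promoter, for 27 weeks, and cells were taken 30 weeks after the injection. Each genotype had 3 libraries, which the labels number 1 to 3 without saying whether each is 1 animal, so p-values measure the spread between libraries, which may in part be technical.

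p53 is a transcription factor that is kept low by the ubiquitin ligase MDM2 and its relative MDM4. When DNA is damaged, the kinases ATM and ATR and their effectors CHK2 and CHK1 signal to p53, which escapes from MDM2 and activates genes that halt the cell cycle, repair DNA or trigger apoptosis. MDM2 is itself a p53 target, so its messenger RNA is often read beside that of Cdkn1a, the p21 inhibitor of cyclin-dependent kinases, as a sign of p53 activity. Much of this control acts on the p53 protein, which messenger RNA does not measure.

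Total counts ran from 27772849 to 35894395 per library. Values are given as CPM, read counts relative to the scaled library size, where 1 CPM stood for 26.7 to 37.9 counts. Ripply1 held 13, 8 and 12 counts in F/F replicates 1, 2 and 3 and 1, 1 and 2 counts in the ΔHep replicates, below the filter on low genes. Albumin took 7.29% to 10.05% of all counts, and 10 hepatocyte markers summed to 117333 to 124902 CPM in F/F libraries and to 107443 to 132437 CPM in ΔHep libraries, with 0 of 10 past the threshold. Markers of other cells were present as well, and 6 further lists had a positive median log2 fold change, ΔHep over F/F. Summed stellate cell and fibroblast markers were at 306 to 461 CPM in F/F and at 632 to 883 CPM in ΔHep (6 of 10 past the threshold), macrophage markers at 279 to 715 and 657 to 877 CPM (0 of 10), endothelial markers at 263 to 440.0 and 481 to 553 CPM (1 of 8), and cholangiocyte markers at 33.01 to 93.6 and 74.7 to 149 CPM (4 of 7 tested). T and NK cell markers summed to 6.49 to 9.29 and 11.8 to 25.6 CPM (0 of 9), B and plasma cell markers to 5.52 to 11.9 and 16.2 to 29.4 CPM (0 of 6 tested), and no marker of any list was at 0 in all 6 libraries. The summed levels overlapped between the genotypes for macrophages and cholangiocytes and were separate for the other 4 lists. Spp1 weighed heavily in the cholangiocyte sum, at 28.4, 21.5 and 81.5 CPM in F/F and at 49.8, 110.9 and 57.5 CPM in ΔHep. Taken singly, 5 of the 7 tested cholangiocyte markers were separate and higher in ΔHep (71.4%, against 15.3% of all genes). Of the macrophage markers 4 of 10 were so (40%). In these bulk libraries a change in the share of a cell type and a change in RNA per cell cannot be told apart.

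The p53 pathway genes differed widely in level. Per kilobase of annotated exon, Perp, a membrane protein of desmosomes and apoptosis, had the highest mean over the 6 libraries, at 43.6 CPM per kb. It was followed by Ei24, a protein of the endoplasmic reticulum, at 40.5, Trp53inp1, a nuclear and autophagy protein, at 31.0, and Ddit4, an inhibitor of mTORC1 signalling, at 29.6 CPM per kb. Trp53 itself ranked 14 of 36, at 3.67 CPM per kb. The lowest were Tnfrsf10b, a death receptor, at 0.109 CPM per kb, Psrc1, a spindle protein, at 0.0993 and Fancd2, the central protein of the Fanconi pathway, at 0.0673. Psrc1, with 1 to 23 counts per library, was the only member below the filter and was not tested. These lengths come from the GENCODE annotation and not from the authors' counting, so the order of close neighbours is uncertain.

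**Figure D1:**
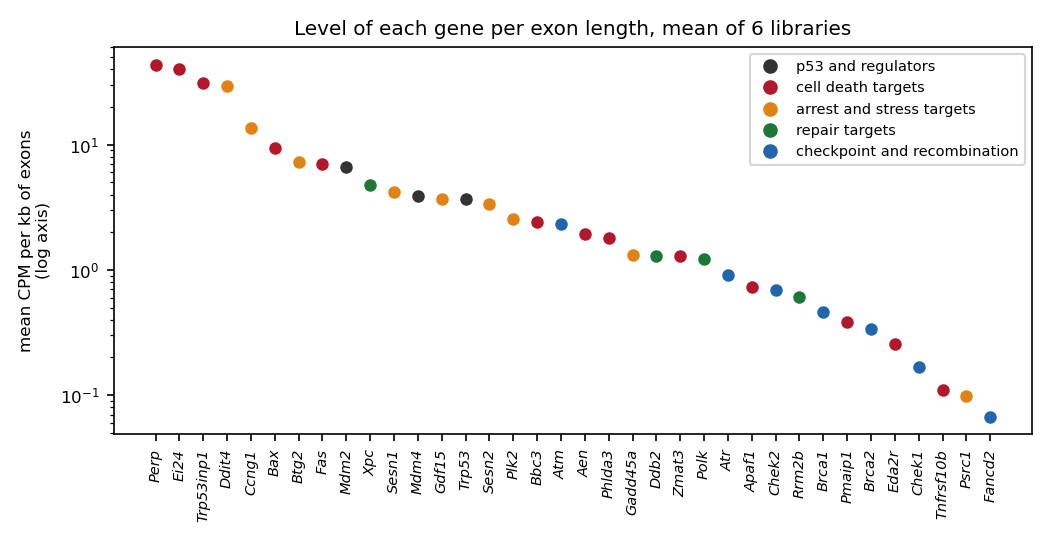
Mean CPM per kilobase of exon over the 6 libraries for each of the 36 genes, on a log axis, with points coloured by role. The order runs from Perp at 43.6 to Fancd2 at 0.0673 CPM per kb, and the 7 checkpoint and recombination genes run from Atm at 2.31, rank 18 of 36, down to Fancd2.

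Between the genotypes, 1 of the 35 tested members passed the threshold and 34 did not, with edgeR's quasi-likelihood test and an adjusted p below 0.05 over all 14552 genes tested. It was Apaf1, which rose in ΔHep, where 1.51% of all genes passed as higher. Among members 0 fell, where 0.165% of all genes passed as lower. At an unadjusted p below 0.05 there were 8 members higher in ΔHep (22.9% of 35, against 14.1% of all genes) and 1 lower (2.86%, against 6.97%). Groups did not overlap in 7 members with higher values in ΔHep (20%, against 15.3% of all genes) and in 1 with lower values (2.86%, against 11.8%). The median log2 fold change, ΔHep over F/F, was 0.24 over the 35 members and -0.01 over all genes tested, with positive values in 24 of 35 members and in 48.8% of all genes. DESeq2 called 3 members higher, Apaf1, Btg2 and Ddit4, and 0 lower, where it called 6.67% of all genes higher and 1.42% lower. Limma-voom called 0 members.

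**Figure D2:**
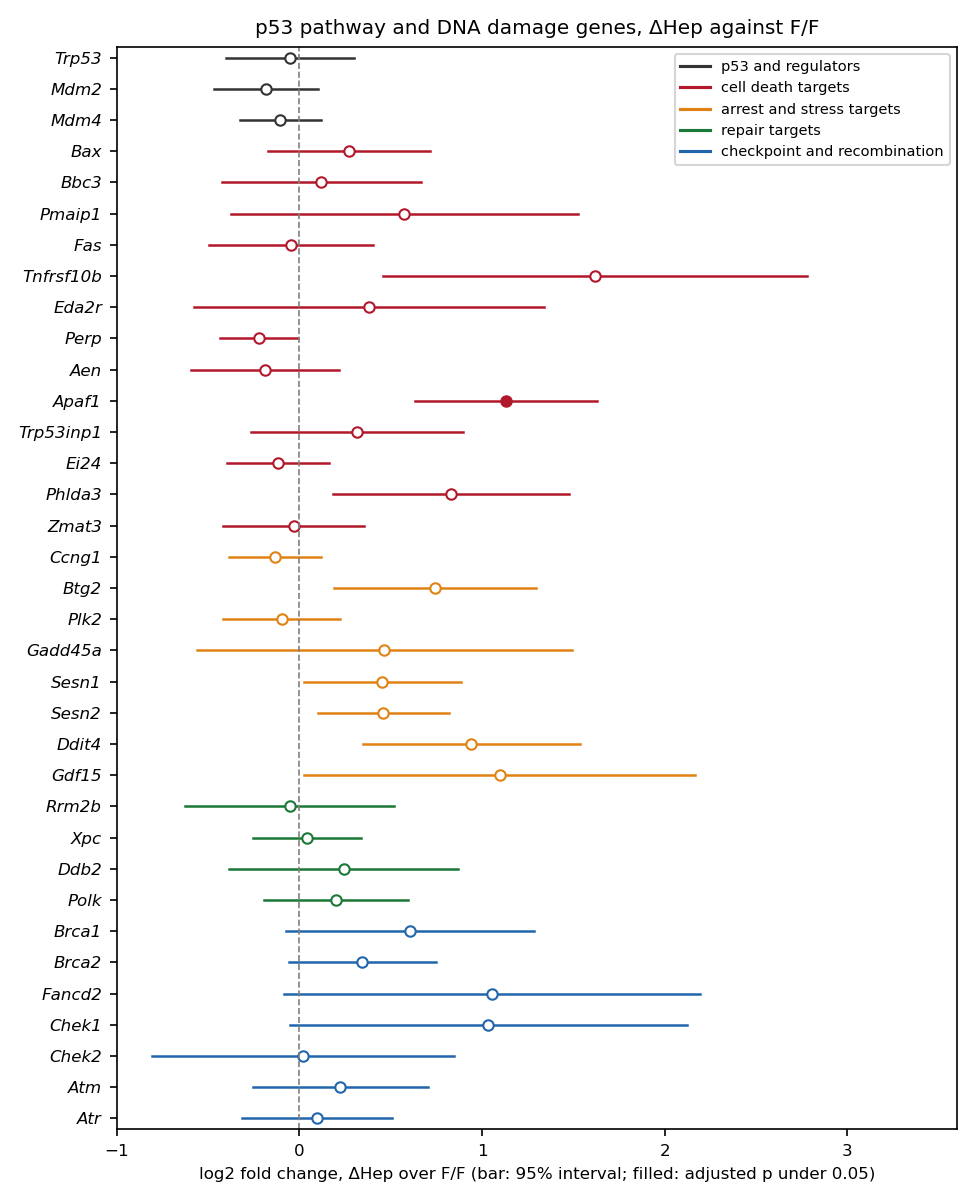
Log2 fold change of each tested member, ΔHep over F/F, with its 95% interval from the edgeR fit of 3 against 3 libraries, ordered by role. Apaf1, the filled point at 1.13, was past the adjusted threshold, and the 3 genes of the p53 core had intervals that spanned 0.

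Trp53 and its direct regulators did not pass the test. Trp53, on the plus strand of chromosome 11 from 69580359 to 69591873 (build mm10), stood at 14.4, 17.6 and 13.2 CPM in F/F replicates 1, 2 and 3 and at 14.0, 16.2 and 13.5 CPM in ΔHep replicates 1, 2 and 3. The groups overlapped almost throughout, with replicate 2 the highest in each. The log2 fold change was -0.05 (SE 0.15, 95% interval from -0.40 to 0.30, adjusted p = 0.882), and its sign turned with library totals in place of scaled sizes (0.038). Mdm2, the ligase that removes p53, lies on the minus strand of chromosome 10 from 117688875 to 117710758. It stood at 36.2, 31.5 and 40.1 CPM in F/F and at 32.7, 33.8 and 28.6 CPM in ΔHep, again with overlapping groups (log2 fold change -0.18, SE 0.12, 95% interval from -0.47 to 0.10, adjusted p = 0.443). Mdm4, which blocks the activation domain of p53, averaged 59.6 ± 2.57 CPM in F/F and at 55.5 ± 3.69 CPM in ΔHep (SD, n = 3 each), with a log2 fold change of -0.10 and an interval from -0.32 to 0.12. The interval of Mdm2 therefore excluded a change of 1 on the log2 scale in either direction, as did those of Trp53 and Mdm4.

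Cdkn1a, which is not among the 36 members but is the best known p53 target, varied more within the genotypes than between them. It is on chromosome 17 from 29090976 to 29100727, plus strand. CPM values were 9.22, 4.21 and 26.6 in F/F and 64.1, 13.1 and 15.03 in ΔHep. A single library, ΔHep replicate 1, was far above all others, and F/F replicate 3 lay above the other 2 ΔHep libraries. The log2 fold change of 1.21 (SE 0.75, adjusted p = 0.395) did not pass, and was 0.08 without ΔHep replicate 1 and 2.19 without F/F replicate 3.

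Apaf1 was the member that rose. It encodes the scaffold of the apoptosome, which binds cytochrome c released from mitochondria and activates caspase 9. The gene lies on the minus strand of chromosome 10 from 90989311 to 91082770. F/F replicates 1, 2 and 3 stood at 3.37, 3.58 and 5.52 CPM (90, 115 and 154 counts) and ΔHep replicates 1, 2 and 3 at 8.89, 8.69 and 9.745 CPM (300, 284 and 369 counts). Every ΔHep library lay above every F/F library, with F/F replicate 3 the highest of its group. Over 3 libraries each, the means were 4.16 CPM with an SD of 1.18 in F/F and 9.11 CPM with an SD of 0.559 in ΔHep. In edgeR the log2 fold change was 1.13 (SE 0.22, 95% interval from 0.63 to 1.63, adjusted p = 0.0457). The fold change stayed between 1.01 and 1.38 when single libraries were left out, but the adjusted p did not stay below the threshold. Leaving out F/F replicate 1 gave 0.179, F/F replicate 2 gave 0.183 and F/F replicate 3 gave 0.00937. Leaving out ΔHep replicate 1 gave 0.0746, ΔHep replicate 2 gave 0.102 and ΔHep replicate 3 gave 0.139. With limma-voom the adjusted p was 0.0524. The marker lists of other cell types, with the summed levels given above, had positive medians in the same comparison, from 0.69 for endothelium to 1.95 for cholangiocytes, and their part in this difference was not tested.

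The bases just before the annotated start of Apaf1 are shown because it is the member that passed. The stretch is 100 bases and the start itself, from RefSeq on GRCm38.p6, chr10:91082743-91082843, minus strand, read 5′ to 3′, and the capital marks the first transcribed base.
Apaf1 promoter: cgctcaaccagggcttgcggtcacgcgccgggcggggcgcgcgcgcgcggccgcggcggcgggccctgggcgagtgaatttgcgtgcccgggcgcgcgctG
In the 300-base window from 250 bases before to 50 bases after this start, 0 matches were found to the p53 response element or to the E2F and CHR motifs described below.

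Among the other targets that act in cell death, 0 of 12 passed. Tnfrsf10b, the mouse receptor for the death ligand TRAIL, stood at 0.187, 0.218 and 0.466 CPM in F/F and at 0.681, 1.22 and 0.792 CPM in ΔHep. These values rest on 5, 7 and 13 counts against 23, 40 and 30, so every ΔHep library was above every F/F library at low counts (log2 fold change 1.62, SE 0.51, adjusted p = 0.13). Phlda3, which competes with AKT for membrane lipids, stood at 2.62, 1.71 and 1.72 CPM in F/F and at 2.96, 4.44 and 3.38 CPM in ΔHep. These groups were also separate, though F/F replicate 1 and ΔHep replicate 1 were close (0.83, SE 0.28, adjusted p = 0.152). Perp was the member with an opposite sign at an unadjusted p below 0.05. It stood at 96.2, 91.8 and 86.9 CPM in F/F and at 78.65, 80.8 and 76.3 CPM in ΔHep, a small difference with separate groups (-0.22, SE 0.09, adjusted p = 0.222).

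The BCL-2 family genes and the receptors Fas and Eda2r overlapped between the genotypes. Bax, the pore-forming protein of the mitochondrial membrane, averaged 13.4 ± 2.66 and 16.2 ± 3.06 CPM (SD, n = 3 each; log2 fold change 0.27, 95% interval from -0.17 to 0.72). Bbc3 (PUMA) and Pmaip1 (NOXA), which inhibit the protective BCL-2 proteins, had fold changes of 0.12 (95% interval from -0.42 to 0.66) and 0.58 (from -0.37 to 1.53). Fas, the receptor of the Fas ligand, was at -0.04 (from -0.49 to 0.40), with a sign that turned with library totals (0.041), and Eda2r, a receptor of the TNF family, at 0.38. With single libraries left out, Eda2r ranged from 0.14, without F/F replicate 3, to 0.94, without F/F replicate 1. Trp53inp1 averaged 179 ± 47.5 and 222 ± 73.0 CPM, and its fold change of 0.32 was 0.02 without ΔHep replicate 1, which stood at 305 CPM. The remaining fold changes were -0.19 for Aen, a nuclease of apoptosis, -0.11 for Ei24 and -0.03 for Zmat3, an RNA-binding protein, the last of these with the opposite sign with library totals (0.067). Bax shares 12.2% of its annotated exon bases with another gene on the same strand, so reads there cannot be assigned with certainty.

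**Figure D3:**
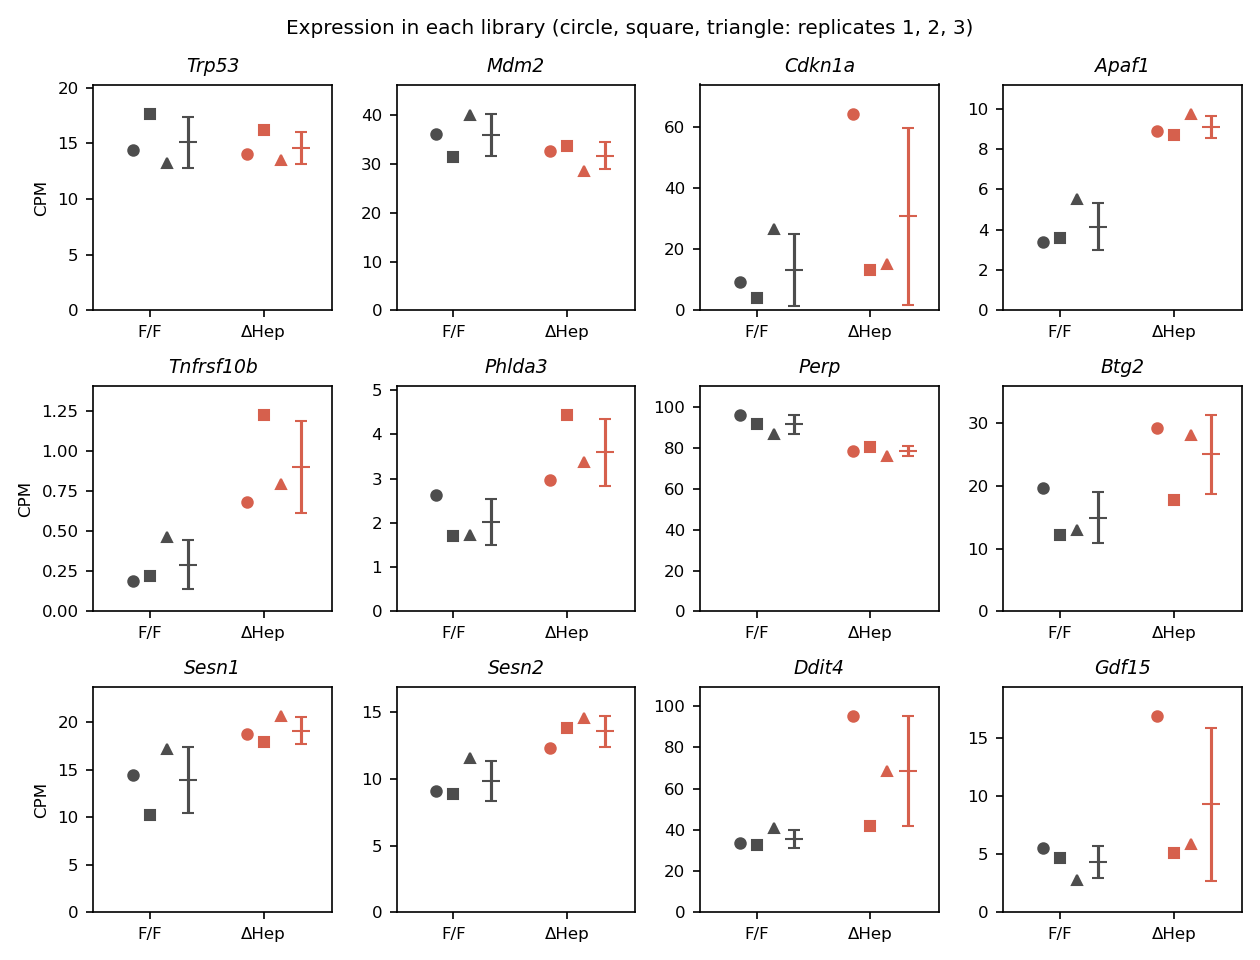
CPM in each library for Trp53, Mdm2, Cdkn1a and 9 members with an unadjusted p below 0.05, with F/F in grey and ΔHep in red. Bars show the mean and SD of 3 libraries, and each axis starts at 0. Apaf1, Tnfrsf10b, Phlda3, Perp, Sesn1, Sesn2 and Ddit4 are separate between the groups, while Trp53, Mdm2, Cdkn1a, Btg2 and Gdf15 overlap. Cdkn1a, Ddit4 and Gdf15 are highest in ΔHep replicate 1.

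The median log2 fold change of targets that act in growth arrest and stress was 0.46 over 8 tested genes, the highest of the 5 role groups, but 0 of 8 passed. At an unadjusted p below 0.05, 5 of the 8 were higher in ΔHep, against 14.1% of all genes. Ddit4 (REDD1), which represses mTORC1 under hypoxia, glucocorticoids and DNA damage, is on the minus strand of chromosome 10 from 59949669 to 59951834. It stood at 33.7, 32.4 and 40.7 CPM in F/F and at 95.1, 41.7 and 68.5 CPM in ΔHep. The groups did not overlap, but ΔHep replicate 2 was close to F/F replicate 3 (log2 fold change 0.94, SE 0.26, adjusted p = 0.0968; DESeq2 adjusted p = 0.00775). Without ΔHep replicate 1 the value was 0.63.

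The sestrins showed a smaller difference with less spread. Sesn1 and Sesn2 encode stress proteins that restrain mTORC1 through its amino acid sensing arm. Sesn1 stood at 14.4, 10.3 and 17.2 CPM in F/F and at 18.8, 17.9 and 20.7 CPM in ΔHep (log2 fold change 0.46, SE 0.19, adjusted p = 0.215). Sesn2 stood at 9.11, 8.88 and 11.6 CPM in F/F and at 12.3, 13.8 and 14.6 CPM in ΔHep (0.46, SE 0.16, adjusted p = 0.152). In both genes the lowest ΔHep library was just above F/F replicate 3, and without that library Sesn2 passed (0.59, adjusted p = 0.049).

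Btg2, an antiproliferative gene that recruits RNA deadenylases, stood at 19.7, 12.2 and 12.98 CPM in F/F and at 29.2, 17.8 and 28.1 CPM in ΔHep. ΔHep replicate 2 lay below F/F replicate 1, so the groups overlapped (log2 fold change 0.74, SE 0.24, adjusted p = 0.139; DESeq2 adjusted p = 0.0461). Gdf15, a secreted stress hormone, stood at 5.59, 4.64 and 2.80 CPM in F/F and at 16.9, 5.11 and 5.86 CPM in ΔHep. ΔHep replicate 1 stood far above the other 5 libraries, and ΔHep replicate 2 lay below F/F replicate 1. The log2 fold change of 1.10 (SE 0.47, adjusted p = 0.227) was 0.34 without it. That library was also the highest for Cdkn1a, Ddit4, Btg2 and Trp53inp1.

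The other genes of this group were Ccng1, Plk2 and Gadd45a. Plk2, a kinase of the polo family, averaged 11.8 ± 1.197 and 11.04 ± 0.614 CPM (SD, n = 3 each; -0.10). Gadd45a, a damage-inducible growth arrest gene, had a fold change of 0.46 with an interval from -0.56 to 1.49, which was -0.13 without ΔHep replicate 2, and shares 19.1% of its exon bases with a gene on the opposite strand. Ccng1, cyclin G1, lies on the minus strand of chromosome 11 from 40748552 to 40755311. It stood at 50.1, 46.2 and 54.1 CPM in F/F and at 46.6, 49.5 and 41.2 CPM in ΔHep (-0.13, SE 0.11, 95% interval from -0.39 to 0.12, adjusted p = 0.531). Its groups overlapped, with F/F replicate 3 the highest and ΔHep replicate 3 the lowest.

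Ccng1 is shown with its sequence because it was the only member whose RefSeq promoter held a match to the p53 response element. RefSeq promoters of 300 bases were given for 27 of the 36 members, 35 windows in all. The element was searched as a pair of adjoining 10-base half-sites with at most 1 mismatch, on both strands at once since the pattern is its own reverse complement. It was present in 22 of 32851 promoters of all genes, or 0.067%. The match in Ccng1 runs from 195 to 176 bases before the start. The stretch is chr11:40755442-40755501 on GRCm38.p6, minus strand, read 5′ to 3′, and capitals mark the element.
Ccng1 promoter: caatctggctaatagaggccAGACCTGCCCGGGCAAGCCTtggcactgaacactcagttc
A match is a description of letters and not of binding, and many p53 sites lie outside such windows.

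**Figure D4:**
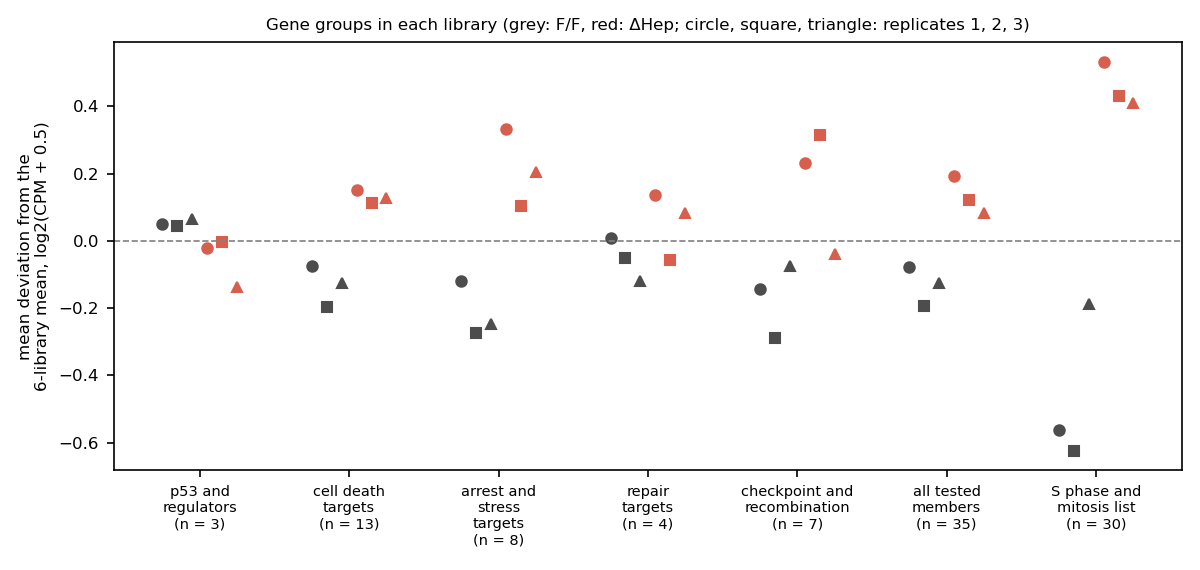
Mean deviation of each role group from its 6-library mean in each library, on the scale log2(CPM + 0.5), with F/F in grey and ΔHep in red. The arrest and stress targets ranged from -0.28 to -0.12 in F/F and from 0.10 to 0.33 in ΔHep, and the p53 core from 0.05 to 0.07 in F/F and from -0.14 to -0.0022 in ΔHep.

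Targets that act in repair and nucleotide supply were close to even between the genotypes, with a median log2 fold change of 0.12 and 0 of 4 past the threshold. Xpc, which recognises bulky lesions for nucleotide excision repair, averaged 25.6 ± 3.31 and 26.3 ± 1.90 CPM (SD, n = 3 each; log2 fold change 0.04, 95% interval from -0.26 to 0.34). Ddb2, its partner for ultraviolet lesions, was at 0.24 (from -0.38 to 0.87), and 23.8% of its exon bases are shared with Acp2 on the opposite strand. With single libraries left out, Ddb2 ranged from 0.0093, without F/F replicate 3, to 0.46, without F/F replicate 2. Polk, a polymerase that copies past damaged bases, was at 0.20 (from -0.19 to 0.60). Rrm2b, the ribonucleotide reductase subunit induced by p53, was at -0.05 (from -0.62 to 0.52), with the opposite sign with library totals (0.043).

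Checkpoint kinases and recombination genes had positive fold changes in 7 of 7 members, with a median of 0.35, and 0 of 7 passed. At an unadjusted p below 0.05 there were also 0 in edgeR, and DESeq2 and limma-voom called 0 as well. Chek1, the kinase that restrains the cell cycle when replication stalls, stood at 0.337, 0.436 and 0.753 CPM in F/F and at 1.51, 0.918 and 0.713 CPM in ΔHep. These rest on 9 to 21 and 27 to 51 counts, and ΔHep replicate 3 lay below F/F replicate 3 (log2 fold change 1.03, SE 0.48, adjusted p = 0.258). Fancd2 stood at 0.225, 0.343 and 0.466 CPM in F/F and at 0.859, 0.888 and 0.423 CPM in ΔHep, with the same overlap (1.05, SE 0.50, adjusted p = 0.269). Brca1, which directs recombination, stood at 4.01, 3.46 and 1.90 CPM in F/F and at 5.07, 5.33 and 3.88 CPM in ΔHep, with overlapping groups (0.61, SE 0.30, adjusted p = 0.284).

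Brca2, a mediator of homologous recombination, had the tightest F/F group. It stood at 4.12, 4.02 and 3.94 CPM in F/F and at 5.51, 4.84 and 5.02 CPM in ΔHep, so the groups were separate (log2 fold change 0.35, SE 0.18, adjusted p = 0.298). The kinases Atm, Atr and Chek2 overlapped between the genotypes. Atm, the kinase activated by double-strand breaks, averaged 22.0 ± 5.53 and 25.7 ± 5.14 CPM (SD, n = 3 each; 0.23, 95% interval from -0.25 to 0.70). Atr, the kinase of stalled forks, was at 0.10 (from -0.31 to 0.51) and Chek2 at 0.02 (from -0.81 to 0.85), and both signs turned when single libraries were left out.

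As a list, genes of S phase and mitosis stood higher in the same ΔHep libraries, with positive log2 fold changes in 29 of 30. Some S phase genes were close to even, with Pcna at 0.05, Mcm7 at 0.11 and Tk1 at -0.17, while Mcm2 was at 0.94 and Mcm5 at 1.61. The median was 1.29, with summed levels of 118 to 147 CPM in F/F and of 188 to 212 CPM in ΔHep. Of the 30 genes 5 passed, all higher (16.7%, against 1.51% of all genes). Leaving out F/F replicate 3 raised the count to 16, leaving out ΔHep replicate 1 lowered it to 2, and it was 0 when any other library was left out. Mki67, the proliferation antigen, stood at 2.06, 1.71 and 6.74 CPM in F/F and at 13.4, 14.1 and 12.8 CPM in ΔHep (1.94, SE 0.46, adjusted p = 0.0673). F/F replicate 3 was the highest F/F library for Mki67, Chek1 and Fancd2 and the lowest for Brca1. Their part in the values of Chek1, Fancd2 and Brca1, which are transcribed mainly in cycling cells, was not tested.

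**Figure D5:**
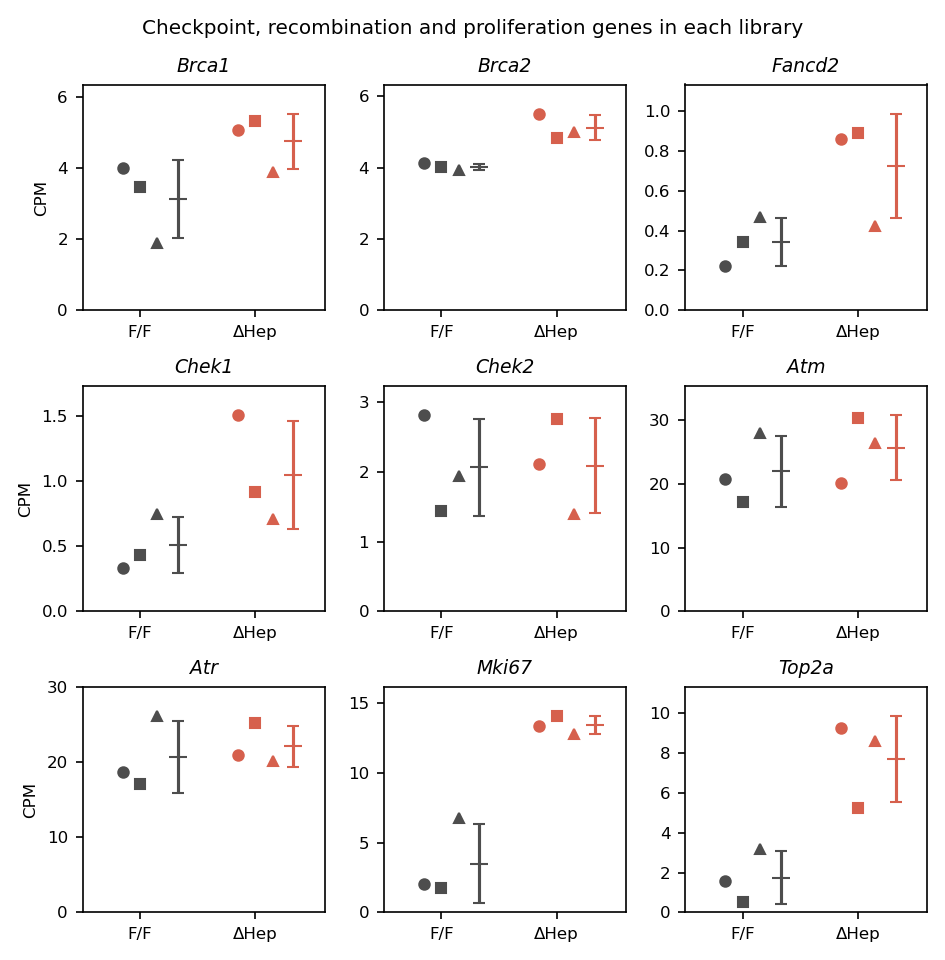
CPM in each library for the 7 checkpoint and recombination members and for Mki67 and Top2a, with replicates 1, 2 and 3 as circle, square and triangle, F/F in grey and ΔHep in red. Bars show the mean and SD of 3 libraries. Mki67 and Top2a are separate between the groups, while Atm, Atr and Chek2 overlap.

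E2F factors drive many genes of S phase, and their motif was searched in the same promoters as TTTCCCGC, TTTGGCGC, TTTCGCGC or TTTGCCGC on both strands. It was found in 2 of the 35 member promoters (5.71%), those of Brca2 and Chek2, and in 2.26% of all promoters. Both stretches are shown because these are the members with the motif. They come from RefSeq on GRCm38.p6, plus strand, read 5′ to 3′, at chr5:150522433-150522480 for Brca2 and chr5:110839811-110839858 for Chek2, with the motif in capitals as the reverse complement of TTTCCCGC.
Brca2 promoter: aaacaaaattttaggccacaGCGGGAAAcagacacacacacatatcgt
Chek2 promoter: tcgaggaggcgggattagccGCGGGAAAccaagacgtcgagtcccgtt
The CHR element of cell cycle genes, searched as TTTGAA or TTCGAA on both strands, was in 22.9% of the member promoters and in 19.2% of all promoters.

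The wider pathway was read from 6 further lists, in which 0 of 117 tested genes passed with edgeR and 20 had an unadjusted p below 0.05. Of these 12 were higher in ΔHep (10.3% of 117, against 14.1% of all genes) and 8 lower (6.84%, against 6.97%). Among 21 other p53 targets the median log2 fold change was -0.02, with 10 positive and 11 negative values. Pml, the scaffold of PML nuclear bodies, stood at 15.97, 21.4 and 20.3 CPM in F/F and at 31.1, 24.9 and 25.5 CPM in ΔHep (0.50, SE 0.15, adjusted p = 0.121). Tigar, which lowers glycolytic flux, averaged 15.2 ± 1.67 and 10.05 ± 3.05 CPM (SD, n = 3 each; -0.60, adjusted p = 0.172), and Trp53i11 was at 0.60. Among 12 other regulators of p53 the median was 0.00. Usp7, the deubiquitinase that stabilises MDM2 and p53, stood at 82.4, 82.0 and 86.6 CPM in F/F and at 69.3, 70.3 and 69.5 CPM in ΔHep (-0.26, SE 0.09, adjusted p = 0.148). Rfwd2 (COP1), another ubiquitin ligase of p53, was at -0.34 and Sirt1, a deacetylase of p53, at -0.37, and in all 3 genes the groups were separate. Among the 12 regulators 5 had separate groups with lower values in ΔHep (41.7%, against 11.8% of all genes) and 0 with higher values. Over all 117 genes of the 6 lists, 16 were separate and lower (13.7%). Another 15 were separate and higher (12.8%, against 15.3% of all genes).

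Among repair genes the values went both ways. Homologous recombination and Fanconi genes had a median of 0.29 over 24 tested genes, with positive log2 fold changes in 17. Groups were separate with higher values in ΔHep in 7 of the 24 (29.2%, against 15.3% of all genes) and with lower values in 0. Exo1, an exonuclease, was at 2.49 from 0, 1 and 6 counts in F/F. Checkpoint and damage-sensing genes had a median of -0.10 over 19 genes, with Cdc25b, a phosphatase of mitotic entry, at 1.12, Rad1, a clamp subunit, at -0.69 and Timeless, a fork protection protein, at 0.62. End joining genes had a median of -0.03 over 10 genes, with the ligase Lig4 at -0.51. These recombination values too were measured beside the higher proliferation genes, and the part of those was not tested.

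Excision, mismatch and reversal repair genes had a median of -0.08 over 31 tested genes. Groups were separate with lower values in ΔHep in 8 of the 31 (25.8%, against 11.8% of all genes). In 3 they were separate with higher values (9.68%, against 15.3%). Mgmt, the enzyme that removes alkyl groups from guanine, which DEN adds, stood at 16.6, 13.4 and 12.98 CPM in F/F and at 10.4, 8.48 and 6.26 CPM in ΔHep. Each ΔHep library was below each F/F library (log2 fold change -0.77, SE 0.21, adjusted p = 0.0903). Polb, the polymerase of base excision repair, averaged 15.8 ± 2.21 and 11.1 ± 0.390 CPM (SD, n = 3 each; -0.50, SE 0.14, adjusted p = 0.106). Lig1, the ligase of replication, stood at 2.40, 1.81 and 2.55 CPM in F/F and at 4.80, 4.77 and 4.44 CPM in ΔHep (1.05, SE 0.22, adjusted p = 0.058). None of these passed in edgeR, while DESeq2 called Mgmt and Polb lower and 4 genes higher, with Lig1 and Cdc25b among them.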

How the data were processed

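RNA sequencing libraries of 6 tumour hepatocyte samples were deposited by the authors as 1 table that holds the raw counts of reads for each gene symbol. Reads were aligned with HISAT2 2.0.4 to build mm10, per the submitters' processing notes. For the counting program, annotation and strand setting, nothing is given in the sources used here, so overlapping and antisense genes cannot be separated. From the counts, edgeR 4.0.16 (R 4.3.3) was run with filterByExpr (minimum count 10, minimum total 15), TMM scaling and the two-sided quasi-likelihood test on genotype alone, with Benjamini-Hochberg adjustment over 14552 genes and a threshold of 0.05. The SE is the fold change divided by the square root of F, and 95% intervals use it with the fit's degrees of freedom. Alternatives were DESeq2 1.42.0, limma-voom (limma 3.58.1), other scalings, no filter, a replicate block and leaving out each library. The fits were also run on simulated data with known changes. Every gene was given the same spread there, so this checks the code and not the calls made here. The common biological coefficient of variation was 21.5%, and a gene at 1 CPM rests on 26.7 to 37.9 counts. Libraries of a group differed by more than counting noise (chi-square per degree of freedom of 19.3 to 116). Coordinates and exon lengths are from GENCODE vM21 (mm10). The members, lists and tests were chosen with earlier results of these data known. Per-library values were given for members past the threshold or with an unadjusted p below 0.05, for Trp53, Mdm2 and Cdkn1a, and from each further list up to 3 genes with the lowest p were named. Per-library values of Brca1, Brca2, Chek1, Fancd2, Ccng1 and Mki67, and the promoter shown for Apaf1, were added after values were seen. Values of some genes in the further lists are not reported here.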

Additional observations from a re-analysis of the deposited data

How the results depend on the processing

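The number of genes called, 244, was 644 with library totals in place of scaled sizes, 1304 with DESeq2, 88 with limma-voom and between 1 and 1246 when single libraries were left out. Leaving out F/F replicate 3 gave 1246 genes and leaving out ΔHep replicate 1 gave 215. The other libraries, F/F replicates 1 and 2 and ΔHep replicates 2 and 3, gave 2, 1, 4 and 5 in that order. Members called higher, 1, were 3 with DESeq2, 0 with limma-voom and 0 to 2 with a library left out, the 2 without F/F replicate 3. Library totals moved the median of all genes from -0.01 to 0.08. They moved the median of all members from 0.24 to 0.33, of the p53 core from -0.10 to -0.0099, of death targets from 0.27 to 0.36, of arrest and stress targets from 0.46 to 0.56 and of repair targets from 0.12 to 0.21. With a library left out, the medians ranged from 0.18 to 0.27 for all members, 0.13 to 0.27 for death targets and 0.46 to 0.60 for arrest and stress targets.

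Of the further pathway genes, 0 were called, against 1 higher (Lig1) with library totals, 4 higher and 2 lower with DESeq2 and 0 to 3 higher with a library left out, the 3 without F/F replicate 3. Proliferation genes called, 5, were 12 with library totals, 16 with DESeq2, 3 with limma-voom, 3 with the replicate block and 0 to 16 with a library left out. The sign turned with library totals for Trp53 (0.038), Fas (0.041), Zmat3 (0.067) and Rrm2b (0.043). With a library left out, log2 fold changes spanned 0 for Trp53 (-0.15 to 0.072), Bbc3 (-0.10 to 0.25), Fas (-0.27 to 0.079), Zmat3 (-0.14 to 0.12), Gadd45a (-0.13 to 0.79), Rrm2b (-0.25 to 0.12), Xpc (-0.066 to 0.12), Chek2 (-0.23 to 0.31) and Atr (-0.026 to 0.29). Without a change of sign, Bax ranged from 0.13 to 0.42, Pmaip1 from 0.34 to 0.93, Atm from 0.072 to 0.43, Brca1 from 0.34 to 0.82 and Chek1 from 0.68 to 1.41. Of the 36 genes followed, which were the 35 tested members and Cdkn1a, 27 kept their sign in all 12 alternatives. The cause of these changes was not tested.

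No pairing of same-numbered libraries is stated. Deviations of same-numbered libraries correlated at 0.113, -0.0689 and -0.00898, and F/F replicate 3 correlated best with ΔHep replicate 2 (0.13). Correlations this weak cannot show whether the numbers mark pairs. With the number as a replicate block, 236 genes and 1 member were called. Low genes such as Fancd2 and Tnfrsf10b rested on few counts, with 3 libraries a group and 1 CPM at 26.7 to 37.9 counts. Their log2 fold changes of 1.05 (SE 0.50) and 1.62 (SE 0.51) did not pass, and what limited these tests was not tested.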
